A study of Mus musculus with 12 samples.

Results

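The regions described here are ac4C peaks on pseudogenes and on predicted loci of the mouse genome. They were taken from 6 deposited peak lists of mouse peritoneal macrophages, the phagocytes of the abdominal cavity. A region was a member when its centre lay inside a locus whose symbol is Gm followed by digits only, or contains -ps or -rs. By that rule 446 of 4753 regions were members and 4307 were not. N4-acetylcytidine (ac4C) is an acetylated form of cytidine in RNA, and RNA bound by an antibody to it was sequenced (RIP-seq) beside total RNA. The cells received IFN-γ, the cytokine of classical macrophage activation. The 6 groups of 2 samples were the ac4C-bound RNA at 0 h, at 24 h and at 48 h and the total RNA at the same 3 times, 12 samples in all. The labels name IFN-γ as the treatment of all groups, the 0 h groups included, and give no strain, sex, age or dose. No group was kept without IFN-γ for 24 h or 48 h, so IFN-γ and the time in culture cannot be told apart. The labels name no animal, culture or batch, so p-values measure the spread between lists, and that spread may be technical. Each peak list carries its hour and a number that ties it to no sample; the number serves only as a name here (0 h list 1, 0 h list 2).

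A pseudogene is a copy of a gene that has lost the ability to make the full protein. Many mammalian pseudogenes are processed: the spliced messenger RNA was copied back into DNA and inserted elsewhere, which leaves a copy with no introns that resembles its parent's transcript. Genes that are transcribed strongly in the germ line, those of ribosomal proteins above all, have many such copies. The suffix -ps marks a pseudogene and -rs a related sequence, and the letters before it name the parent. A Gm number is a provisional name for a predicted gene, which can be a pseudogene, a long noncoding RNA, a small RNA or a transcript that overlaps a named gene. A short sequencing read from a parent transcript can fit a close copy equally well. The sources used here do not say where the submitters' alignment placed such reads, so a peak on a copy is uncertain as to which transcript it came from.

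The members lay on 237 loci, of which 201 had a Gm name, 34 a -ps name and 2 an -rs name. A RefSeq table of an earlier build (GRCm38.p6), used for names and gene types alone, held 151 of them and did not match 86. It typed 121 as pseudogenes, 8 as transcribed pseudogenes, 16 as long noncoding RNAs, 4 as protein-coding genes and 2 as guide RNAs, the class of small RNAs that direct the modification of other RNAs. Of the 121 pseudogenes 117 had a region in their own exon and in no exon of another gene, against 1 of 16 long noncoding RNAs and 12 of 86 unmatched loci.

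Most member regions, 233 of 446 (52.2%), also lay inside another gene. In 197 regions on 108 loci the centre was in an exon of the member locus and in no other gene. In a further 67 regions on 33 loci the centre was in an exon of the member locus inside an intron of another gene. These 2 classes together are called own-exon regions below. In 158 regions on 85 loci the centre also lay in an exon of another gene, and 24 regions on 15 loci lay in an intron of the member locus and in no exon of another gene. Whether reads were assigned by strand is not stated, so in the shared regions RNA of the Gm locus and of the named gene cannot be told apart. The lists held 95 and 97 member regions at 0 h, 61 and 74 at 24 h, then 64 and 55 at 48 h.

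**Figure D1:**
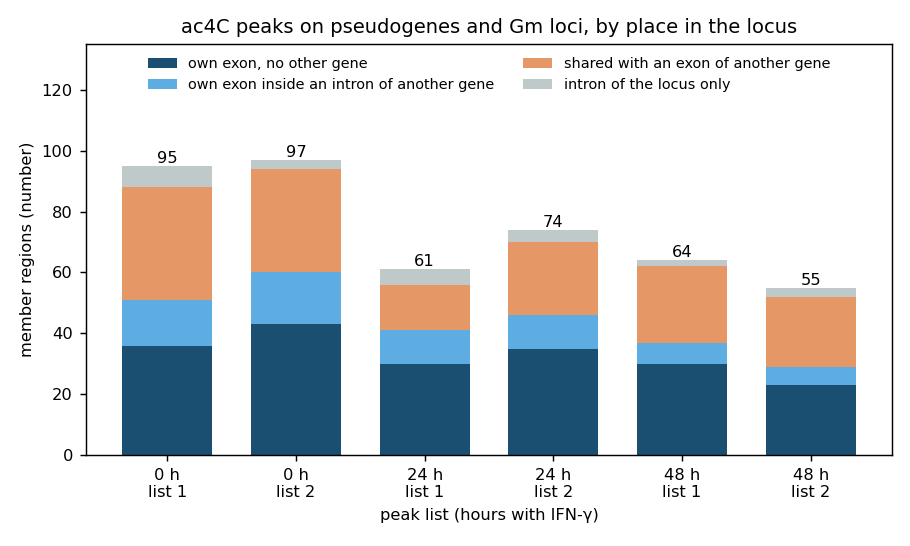
Number of member regions in each peak list (bars, with the total above), split by place in the locus; the horizontal axis gives the list and its hours with IFN-γ. The 0 h lists hold 95 and 97 regions and the 4 later lists 55 to 74, and own-exon regions and regions shared with another gene's exon make up most of every bar.

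One member region overlapped an annotated microRNA gene. The region of the pseudogene Gm4149 (ENSMUSG00000074800), at chr13:75793061-75793291 in GRCm39, was centred in the last exon both of Gm4149 and of Mir682. It ranked among the strongest regions of the 3 lists that held it, at a fold enrichment of 3.91 in 0 h list 2, 4.34 in 24 h list 2 and 4.46 in 48 h list 1. Its percentile of −log10 p among the regions of these lists was 98.3 to 99.5. Fold enrichment, the deposited ratio, sets the pull-down at a peak's summit against the background that the peak caller estimated. The other list of each of these times had no region there. RNA of the pseudogene and of the microRNA gene cannot be told apart in this region, so the peak is not one of the microRNA alone. The name Gm4149 gives no parent, so its family was not assigned. The sequences of the microRNA are shown because they are the annotated transcript inside this region that the reference tables spell out. They come from RefSeq on GRCm38.p6 (plus strand), and capitals mark the seed, bases 2 to 8, in the mature form and the mature arm in the hairpin.
mmu-miR-682: cUGCAGUCacagugaagucug
Mir682 hairpin: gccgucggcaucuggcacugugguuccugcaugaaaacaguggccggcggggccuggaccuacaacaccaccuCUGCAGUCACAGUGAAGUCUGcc
The mature form is 21 bases long and the hairpin 96 bases.

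Members were ranked by the percentile of their −log10 p within a list, averaged over the lists that held them. The highest ranked member was not a pseudogene. Gm22009 (ENSMUSG00000089417), which RefSeq types as a guide RNA, lies in intron 12 of Kpna4, the gene of a nuclear import receptor, and its region spanned chr3:68992445-68992760 over the lists. At 0 h its fold enrichment was 8.20 and 9.31, at 24 h 6.98 and 9.38, and at 48 h 11.6 and 12.7. The region ranked at a percentile of −log10 p between 99.9 and 100 in each of the 6 lists, and first in 4 of them. The q values of the authors, given as −log10, ran between 47.3 and 89.8. The second guide RNA, Gm25395 on chromosome 1, lay in no other gene. It had a fold of 4.26 and 6.85 at 0 h and of 3.67 in 24 h list 1, and no region in the other 3 lists, so the 2 guide RNAs differed in how often they were listed.

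Gpx4-ps2 (ENSMUSG00000110841) was the highest ranked pseudogene with a peak in all 6 lists. Its parent Gpx4 encodes the glutathione peroxidase that reduces lipid peroxides in membranes. The region of the copy lay at chr10:45751532-45752112 in the last exon of the locus and in no other gene. Its fold was 4.22 and 4.12 at 0 h, 2.98 and 2.70 at 24 h, then 2.84 and 3.01 at 48 h. Its −log10 q was 48.4 and 46.0 at 0 h, 19.8 and 18.6 at 24 h, then 14.4 and 12.0 at 48 h. Fold and q belong to a list and its depth, so their order over the times was not tested. Gpx4 itself had no peak in any list.

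Tpm3-rs7 (ENSMUSG00000058126), a copy of the tropomyosin gene Tpm3 of the actin cytoskeleton, also had a peak in all 6 lists. Its region lay at chr14:113552152-113552781, with a fold of 2.41 and 2.59 at 0 h, 2.62 and 3.28 at 24 h, then 3.45 and 3.38 at 48 h. Tpm3 had no peak in any list. The other 2 members found in all 6 lists by their own regions shared an exon with a named gene. Gm20234 overlapped the last exon of Slfn2, a gene of the interferon-induced Schlafen family, and had folds of 2.73 and 2.79 at 0 h, 2.33 and 1.89 at 24 h, then 2.65 and 3.59 at 48 h. Gm26759 overlapped the 3′ UTR of Irf2bp2, a transcriptional corepressor, at folds of 2.55 and 3.48 at 0 h, 2.23 and 2.65 at 24 h, then 3.56 and 2.01 at 48 h. Gm37376, inside the long noncoding RNA gene Malat1, lay in a chain of overlapping Malat1 regions present in all 6 lists. Only its regions in 24 h list 2 and 48 h list 2, at folds of 2.29 and 2.75, were centred in the Gm locus, and its rank is that of the whole chain.

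Of the 10 highest ranked members with a region in 4 or more lists, 6 had a region in 5 lists each. Gm9800, at chr14:13669505-13669830, was among the strongest regions at 0 h, with a −log10 q of 61.9 and 70.6. Its −log10 q was 13.5 in 24 h list 2 and 7.67 and 5.47 at 48 h, and 24 h list 1 had no region there. Its fold was 4.095 and 4.97 at 0 h, 3.66 in 24 h list 2, and 2.90 and 2.64 at 48 h. Both values were highest in the 0 h lists, whose input was deepest by the measure given below, and this order was not tested. The pseudogene Gm9843 on chromosome 16 had folds between 2.09 and 2.57 and lacked a region in 48 h list 2. Gm5814 on chromosome 17, which lies in an intron of Gm50461, had folds of 8.53 in 0 h list 1, 8.68 and 8.12 at 24 h, then 4.58 and 9.00 at 48 h. These folds stood on a low input coverage, 1.30 to 6.00 fragments. Input coverage here is the background mean at the summit that the deposited fold and p imply. It is not a count of input reads. Hspd1-ps3, a copy of the mitochondrial chaperonin gene Hspd1, had its strongest region at folds of 3.71 and 3.79 at 0 h, 3.25 and 3.63 at 24 h, and 3.80 in 48 h list 2. The pseudogene Gm17807, in intron 2 of Ptprn2, had folds of 4.21 and 3.39 at 0 h, 3.75 and 5.28 at 24 h, and 6.65 in 48 h list 1. The pseudogene Gm7308 on chromosome 6 had folds of 3.16 and 2.28 at 0 h, 2.80 in 24 h list 2, and 2.85 and 3.35 at 48 h. Each of these 6 lacked a region in 1 list, and that list was not the same for all 6.

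**Figure D2:**
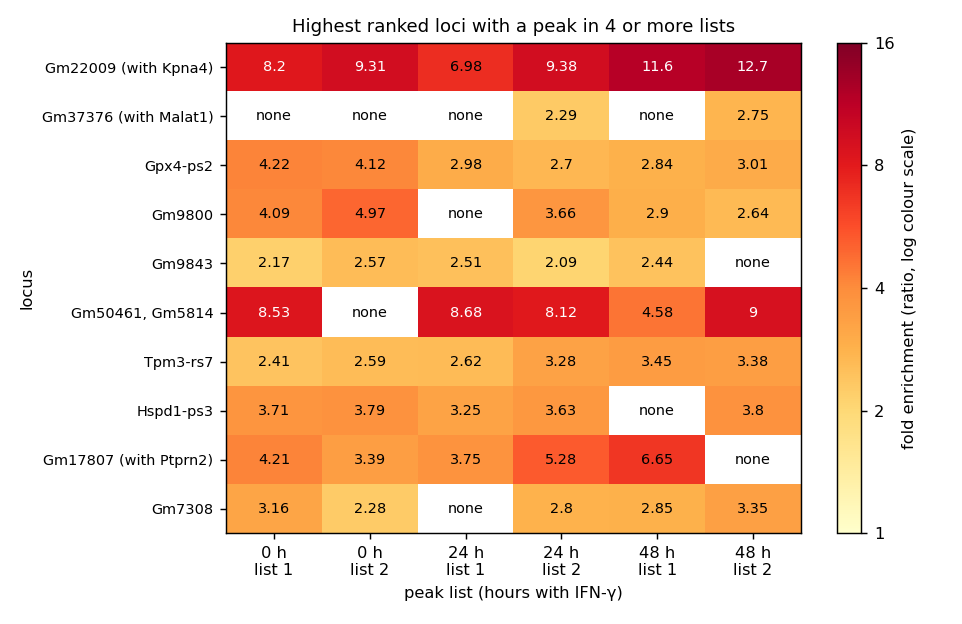
Fold enrichment (ratio, log colour scale, value printed in each cell) of the 10 highest ranked member loci with a region in 4 or more lists, by peak list; "none" marks a list without a region centred in the locus. Gm22009 stays between 6.98 and 12.7 in all lists, Gpx4-ps2 between 2.70 and 4.22, and Gm37376 has its own regions in 2 lists.

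Most members were found in a single list. Regions of different lists that shared 1 base or more were merged, which gave 263 merged member regions among 2808. Of these 171 (65.0%) were in 1 list, against 63.2% of all merged regions. Members in 4 or more lists numbered 23 (8.75%), and the share over all merged regions was 8.44% (237 of 2808). The members' recurrence was therefore near that of all regions. By locus symbol, 141 of the 237 loci had a region in 1 list, 26 in 4 or more lists and 5 in all 6.

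The other 13 merged members in 4 or more lists had lower ranks, Gm20234 and Gm26759 with their regions in all 6 lists among them. Llph-ps2 is described with its parent. Gm13461, in intron 2 of Lrp1b, had folds of 2.66 to 3.40 in 4 lists. Gm12693, Gm10250 and Gm9892 lay in no other gene, and Gm7809 and Gm9392 in an intron of one. Gm10563 overlapped Cdk11b at folds of 4.16 to 5.65, over an input coverage of 1.00 fragment in each of its 4 lists. Gm17134 shared its region with the 3′ UTR of Ptbp1, a splicing regulator, and Gm43809 with the last exon of Mrpl33, a mitochondrial ribosomal protein gene. Own-exon regions made up 17 of the 23 (73.9%), against 142 of all 263 merged members (54.0%), a difference that was not tested.

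The 5 highest ranked members found in 1 list showed how strong a peak without a second list could be. Rpl36a-ps2, a ribosomal protein copy in intron 4 of Ddah1, reached a fold of 4.17 (−log10 q 25.1) in 48 h list 2. Rplp2-ps1, whose region lay in the 3′ UTR of Wdr89, had a fold of 2.68 and the highest −log10 q of the 5, 37.2, in 0 h list 2. These 2 and the pseudogene Gm9844 (24 h list 2, −log10 q of 16.6) ranked above a percentile of 97. Gm48444, in the 3′ UTR of the activin gene Inhba, followed with a −log10 q of 14.4 in 48 h list 2, and Gm11478, in intron 7 of Vmp1, with 18.4 in 0 h list 2. Gm48444 had further regions at other places in the locus. One was in 24 h list 1 and 48 h list 2, another in 24 h list 1 and both 48 h lists. For Gm48444 the single list thus holds for this place and not for the locus. At all 5 places the other list of the same time had no region.

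Named copies of ribosomal protein genes formed the largest family. Of the 36 loci named -ps or -rs, 11 were copies of 9 ribosomal protein genes: Rpl18-ps2, Rpl19-ps11, Rpl36a-ps1, Rpl36a-ps2, Rplp2-ps1, Rps16-ps2, Rps19-ps6, Rps23-ps1, Rps24-ps3, Rpsa-ps2 and Rpsa-ps12. Only Rps24 among the 9 parents had a peak, in 0 h list 2 and 24 h list 1, at folds of 2.05 and 2.23 and a q of 1 in both. Its copy Rps24-ps3 on the X chromosome had folds of 2.55 and 2.34 at 0 h and 2.23 in 48 h list 2, with a −log10 q of 51.4, 36.4 and 21.1. The copy's summit held 901 and 722 pull-down fragments over an input coverage of 154 and 144 at 0 h, and 906 over 105 in 48 h list 2. The copy thus passed the threshold of q in each of its lists and the parent in none. Rps23-ps1 on chromosome 3 had folds of 1.94 in 0 h list 1, 2.57 in 24 h list 2 and 2.22 in 48 h list 2. Rps16-ps2, in intron 6 of Adgrd1, had folds of 1.62 in both 0 h lists and 1.88 in 48 h list 1. The region of Rpl19-ps11 also lay in an exon of a locus without a symbol, at folds of 1.74, 2.09 and 2.09 in list 2 of each time. These 4 copies had low folds over high input coverage. Rpl18-ps2 and Rpl36a-ps1, each in 0 h list 2 alone, had folds of 5.45 and 4.35 with a −log10 q of 14.1 and 3.12. Rpsa-ps2 and Rpsa-ps12 stood at the other end, with folds of 3.77 and 4.48 over an input coverage of 2.00 and 0.602 fragments and a −log10 q of 0.873 and 1.00. The 0.602 was the lowest background value of 24 h list 1. Across the whole of the ribosomal protein family, 13 of 86 genes of the RefSeq table had a peak in any list.

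Most parents of named copies had no peak of their own. Of the 36 named copies 34 had a parent in the RefSeq table, and these 34 named 32 parents; the parents of Gvin-ps7 and Tmem250-ps were not matched. The parents of 8 of the 34 copies had a peak in any list, 6 of them at a q of 0.05 or less. Counted by parent, 8 of the 32 had a peak. Over all protein-coding genes of the RefSeq table the share with a peak was 8.1% (1773 of 21896), a lower share. The 21896 genes were not limited to those transcribed in these cells. Among ribosomal protein genes the order was the other way, with a peak on 1 of 9 parents and on 13 of 86 genes of the family. Counted by list, the 34 copies had a peak in 75 pairs of copy and list, and the parent had one in the same list in 11 of them. No test was made of these counts. Gvin-ps7 stood at a fold of 3.49 in 0 h list 1, and Tmem250-ps, which RefSeq types as protein-coding, 2.70 in 48 h list 1.

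The 8 parents fell into those with a peak in every list and those with a peak in few. Rab7, a small GTPase of late endosomes, had a 3′ UTR peak in all 6 lists, with folds of 2.93 and 3.16 at 0 h, 2.90 and 2.61 at 24 h, then 2.48 and 3.42 at 48 h. Rab7-ps1 had a peak in 24 h list 2 alone, with a fold of 1.77 and 0.442 as its −log10 q. Anp32b, a histone-binding nuclear protein, had peaks in exon 4, exon 5 or the last exon in all 6 lists, at folds up to 4.88. Its copy Anp32b-ps1 had folds of 3.96 and 3.11 at 0 h and 4.68 in 48 h list 1, with a −log10 q of 18.5, 10.3 and 15.5. The highest −log10 q of Anp32b itself was 6.16. Atf1, a transcription factor of the CREB family, also had a peak in all 6 lists, at folds of 1.90 to 4.02, and Atf1-ps in 24 h list 2 alone at 3.46. In these 3 pairs the parent had a peak in every list and the copy in 1 or 3 lists.

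The other 5 parents, Rps24 among them, had a peak in 1 to 3 lists. Hspd1 had peaks in 0 h list 1, 0 h list 2 and 24 h list 2, each a list in which Hspd1-ps3 had one too, at best folds of 4.02, 2.83 and 4.38. Ptges3, a co-chaperone of Hsp90, had a peak in 0 h list 1, where Ptges3-ps had one at a fold of 3.02; the copy was also present in 24 h list 2 and 48 h list 2. Smarca5, a chromatin remodelling ATPase, had a peak in 24 h list 1 at a q of 1, where its copy had a fold of 4.85. Llph, whose protein is known for a role in ribosome assembly, had its peak in 48 h list 2, the time at which Llph-ps2 had one in the other list. Llph-ps2 had a peak in 4 lists, at folds of 3.14 and 2.22 at 0 h, 4.40 in 24 h list 2 and 4.74 in 48 h list 1.

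Apart from Gm7809, the remaining copies described had no peak on the parent. Btf3-ps1, a copy of a transcription and nascent-chain factor gene, lay in intron 3 of Pam, with folds of 2.98 and 2.53 at 0 h and 3.13 in 24 h list 2. Cd63-ps, a copy of a tetraspanin gene, had folds of 3.02 and 2.60 at 0 h and no later region. Atp5pb-ps and Psma5-ps were both found in 24 h list 2 and 48 h list 2, and Tcea1-ps1 in 0 h list 2 and 48 h list 1. A further 8 copies, Csnk2a1-ps3, Eif3s6-ps1, Mrpl48-ps, Npm3-ps1, Pdcd5-ps, Rtraf-ps, Tsg101-ps and Uqcrh-ps1, had a peak in 1 list each. Uqcrh-ps1 had the highest fold of any named copy, 6.67 in 48 h list 1, over an input coverage of 0.467, the lowest background value of that list. RefSeq also lists Gm7809 under the synonym Tpm4-ps. It had a peak in 5 lists at folds of 1.63 to 2.54, and Tpm4 had one in the sixth, 48 h list 2, at a q of 1.

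**Figure D3:**
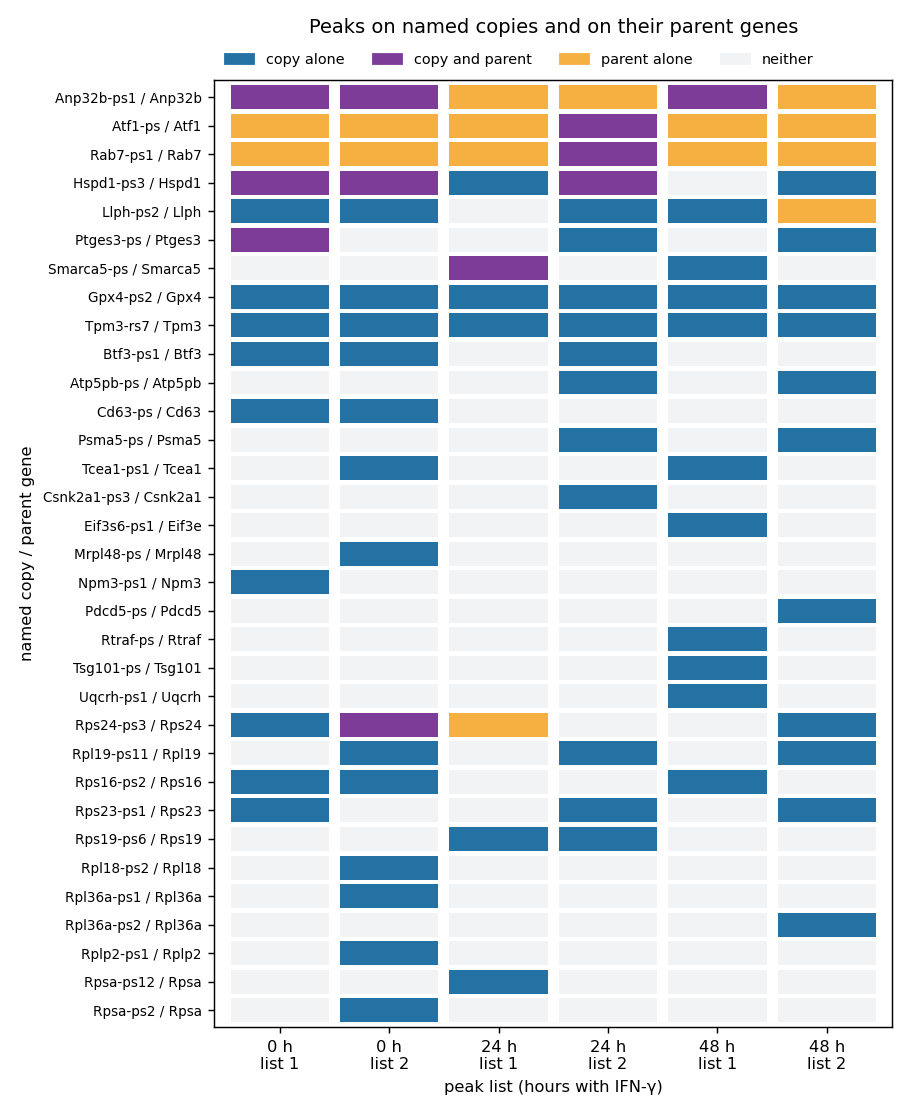
Named copies with a matched parent (rows, named as copy and parent, ribosomal protein genes at the bottom) in the 6 peak lists (columns); colour marks a peak on the copy alone, on both, on the parent alone or on neither. Copy and parent share a list in 11 cells, and Gpx4-ps2 and Tpm3-rs7 have a peak in all 6 lists without a peak on the parent.

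The summits did not sit at one end of the pseudogenes. For 232 own-exon regions on 123 loci typed as pseudogenes, the authors' tables also gave the start and end of the locus. The median locus was 626 bases long, and a region covered a median of 46.6% of it. The summit lay in the first of 3 equal stretches of the locus, counted from its 5′ end, in 53 regions, in the middle one in 101 and in the last one in 78. A region ran past an end of its locus in 64 of the 232. A region had to have its centre in the locus to be counted, which limits how near to an end a region could lie.

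**Figure D4:**
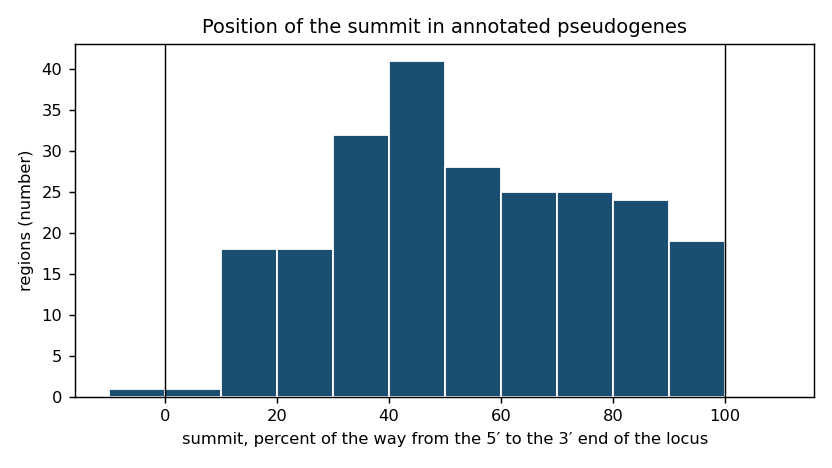
Number of own-exon regions (vertical axis, 232 in all) by the position of their summit along the pseudogene, in percent of the way from the 5′ to the 3′ end (horizontal axis, black lines at both ends). The summits spread over the locus, with 53, 101 and 78 in the first, middle and last of 3 equal stretches.

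The median fold of members and of the other regions of a list lay close together. The median fold of members and of other regions was 3.05 and 2.93 in 0 h list 1, and 2.98 and 3.02 in 0 h list 2. It was 2.98 and 3.00 in 24 h list 1, 2.97 and 2.96 in 24 h list 2, 3.59 and 3.28 in 48 h list 1, and 3.38 and 3.32 in 48 h list 2. The difference, members minus other regions, averaged 0.031 ± 0.057 on the log2 scale (SD, n = 6 lists) and was positive in 4 of 6 lists (two-sided exact sign-flip permutation test, p = 0.281). The lists share regions and are not independent. When the regions of a list were compared within 4 bins of input coverage, a comparison added after the values were seen, the difference was 0.12 and positive in 6 of 6 lists (exact p = 0.0312, unadjusted).

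Members passed a q of 0.05 more often than the other regions of the same list. The other regions were all that were not members, whether in exons, in introns or outside genes. No comparison limited the other regions to exons, so a difference by place in a gene cannot be told apart from one by kind of locus. The share was 64.2% of members and 51.0% of other regions in 0 h list 1, and 62.9% and 47.8% in 0 h list 2. At 24 h it was 55.7% and 37.4% in list 1, and 58.1% and 33.6% in list 2. At 48 h it was 54.7% and 39.5% in list 1, and 61.8% and 34.2% in list 2. The difference averaged 19.0 ± 5.81 percentage points (SD, n = 6 lists) and was positive in 6 of 6 lists. The exact sign-flip p was 0.0312, the smallest that 6 lists allow, and 0.0682 after Benjamini-Hochberg adjustment over the 24 comparisons of this kind, so it did not pass the correction. At equal list length 5 of 6 lists had a positive difference (14.7 points, exact p = 0.0625).

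The input coverage of members was also higher. Their median input coverage at the summit, recovered from the authors' fold and p, was higher than that of other regions in 6 of 6 lists, by 0.81 ± 0.22 on the log2 scale (1.75-fold; SD, n = 6 lists). The medians of members and of other regions were 10.0 and 6.00 fragments in 0 h list 1 and 6.08 and 3.00 in 48 h list 2. The pull-down fragments at the summit were higher by 0.66 ± 0.22 (1.58-fold), also in 6 of 6 lists. Both had an exact p of 0.0312 and an adjusted p of 0.0682. For equal fold, a region with more fragments has a smaller q. Within the 4 bins of input coverage the difference in the share at a q of 0.05 was 14.5 points and positive in 6 of 6 lists (exact p = 0.0312, unadjusted). That comparison was also added after the values were seen, and the cause of the difference was not tested.

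**Figure D5:**
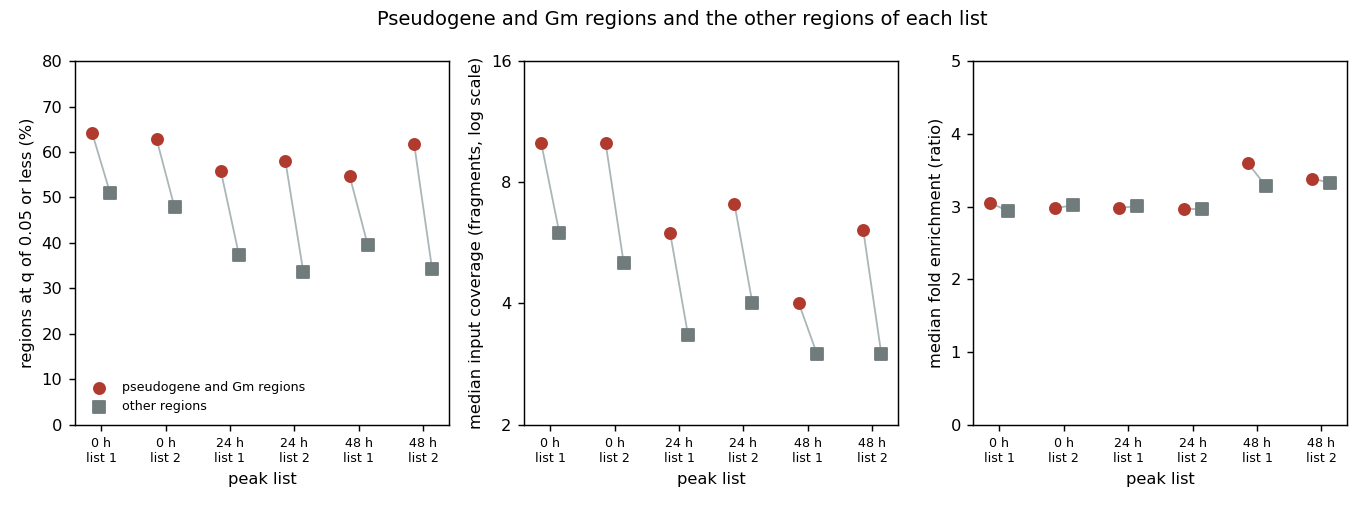
Share of regions at a q of 0.05 or less (left, percent), median input coverage (middle, fragments, log scale) and median fold enrichment (right, ratio) of member regions (circles) and of the other regions (squares) in each of the 6 lists; lines join the values of a list. Members are higher in every list in the left and middle panels, and the median folds differ little.

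The difference in the share at a q of 0.05 was larger for own-exon regions. Against the other regions of their list they had a share at a q of 0.05 that was higher by 28.4 ± 9.76 percentage points (SD, n = 6 lists), in 6 of 6 lists. Their median input coverage was higher by 1.33 ± 0.57 on the log2 scale. The members that share an exon with another gene exceeded the other regions by 8.63 ± 5.65 points, in 6 of 6 lists, with an input coverage that differed by 0.14 ± 0.35. Set against each other, own-exon regions exceeded shared-exon regions by 19.7 ± 11.2 points in 6 of 6 lists. The 3 differences in points had an exact p of 0.0312 and an adjusted p of 0.0682. These classes were defined after the annotations had been seen.

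The share of regions found again in the other list of the same time gave no difference that passed the test. Of members and of other regions, the share found again was 45.3% and 36.7% in 0 h list 1, 42.3% and 45.4% in 0 h list 2, and 34.4% and 26.2% in 24 h list 1. It was 29.7% and 30.8% in 24 h list 2, 21.9% and 28.9% in 48 h list 1, and 27.3% and 31.6% in 48 h list 2. The mean difference was 0.21 ± 6.61 points, positive in 2 of 6 lists (exact p = 0.906). Shared-exon members were found again less often than other regions in 6 of 6 lists, by a mean difference of -10.9 ± 6.57 points (exact p = 0.0312, adjusted p = 0.0682).

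Fewer member regions were listed at the later times, as were fewer regions of all kinds, and neither later time could pass the test. The other regions numbered 1056 and 849 at 0 h, 664 and 572 at 24 h, then 610 and 556 at 48 h. The mean was 67.5 ± 9.19 at 24 h against 96.0 ± 1.41 at 0 h, a log2 ratio of -0.51, and 59.5 ± 6.36 at 48 h against 96.0 ± 1.41 at 0 h, a log2 ratio of -0.69 (SD, n = 2 lists each). Both later times together stood at 63.5 ± 7.94 (n = 4), against 96.0 ± 1.41 at 0 h. The two-sided exact permutation p was 0.0667, the smallest that 4 lists against 2 allow, and 0.267 after adjustment over 4 contrasts. Each later time alone could not go below p = 0.333 (exact) and stood there. The input depth moved with these counts, as read from the lowest input coverage recovered in each list. That value is 1 minimum per list and not a count of reads. Relative to the deepest list it was 100% and 91.4% at 0 h, 73.7% and 80.8% at 24 h, then 57.2% and 44.5% at 48 h, from the input coverage recovered. With the input of all lists matched to the shallowest, the later lists held a mean of 54.8 regions and the 0 h lists 80 (log2 ratio -0.55, exact p = 0.0667). The difference between 48 h and 24 h then turned, to a mean of 56 at 48 h and 53.5 at 24 h, against 59.5 and 67.5 without matching.

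No difference between times in the share of members passed the test. It was 8.25% and 10.3% at 0 h, 8.41% and 11.5% at 24 h, then 9.50% and 9.00% at 48 h. The difference to 0 h was 0.68 percentage points at 24 h (exact p = 0.667) and -0.0051 at 48 h (exact p = 1.00), and 0.34 for the 4 later lists together (exact p = 0.867). The lists of 0 h and of 24 h differed among themselves by more than the times did.

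Losses of member regions at 24 h and 48 h against 0 h ran close to the rate of all regions. A region was called lost when both lists of the earlier time held it and neither list of the later time did, and gained in the reverse case. At 24 h against 0 h, 18 of 263 merged member regions were lost (6.84%), against 7.3% of all merged regions, and 4 were gained (1.52%), against 1.53%. At 48 h against 0 h, 15 were lost (5.70%), against 6.87%, and 4 were gained (1.52%), against 1.92%. These 2 comparisons share the 0 h lists. At 48 h against 24 h, 8 were lost (3.04%), against 2.07%, and 2 were gained (0.760%), against 1.85%. Of these 6 shares, the one of losses at 48 h against 24 h lay above its background and the others at or below it, each on 2 to 18 regions.

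In all, 9 member regions were in both 0 h lists and in no later list (3.42%, against 4.99% of all merged regions). The highest ranked was that of Cd63-ps inside intron 2 of Hsd17b4, with 316 and 264 pull-down fragments and a −log10 q of 22.9 and 14.7. Gm44732, in exon 2 of the cell cycle inhibitor gene Cdkn1c, had folds of 3.06 and 4.33. Gm49368, in the 3′ UTR of Itgam, the CD11b integrin chain of macrophages, had folds of 2.60 and 2.58. Gm14681 on the X chromosome (2.63 and 2.65) lay in no other gene, and Gm16286 (3.07 and 2.97) in intron 2 of Txnl4a. The other 4 were on Gm10282, Gm12966, Gm19710 and Gm43552. Of the 5 highest ranked, the Cdkn1c and Itgam regions lay in exons of a named gene and 3 were own-exon regions.

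No merged member region was in all 4 later lists and neither 0 h list, against 0.249% (7) of all merged regions. Both 24 h lists alone held 4 member regions, the same 4 that were gained at 24 h against 0 h. How many of all merged regions were in both 24 h lists alone, or in both 48 h lists alone, was not counted. The counts of these patterns therefore have no background. Rps19-ps6, in intron 3 of Tecpr2, was the strongest, at folds of 3.95 and 1.91 and a −log10 q of 18.6 and 2.56. The other 3, Gm6563, Gm15773 and Gm14253, had a −log10 q of at most 1.76. Both 48 h lists alone held 1, Gm17036, which overlapped exon 12 of the kinesin gene Kif5b at folds of 2.82 and 4.26 and a −log10 q of at most 0.493. The regions gained at 48 h against 0 h were those of Gm12696, Gm49909, Gm48444 and Gm17036. Gm12696, a pseudogene on chromosome 4, was the one in an exon of its own and in no other gene, at folds of 4.25 in 24 h list 1 and 4.24 and 4.74 at 48 h and a −log10 q of 9.44, 16.4 and 12.6.

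The labelled cell type was looked for among the peaks. Of 12 macrophage markers, 3 had a peak: Itgam in 2 lists, Lyz2 in 1 and Cebpb in 5. Of 4 markers each of B cells, T cells, neutrophils and mast cells none had a peak, and of 4 mesothelial markers Wt1 had one in 1 list. A marker without a peak is not a marker without RNA, so peaks alone give no measure of other cells.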

How the data were processed

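The 6 deposited peak lists, 2 for each time, were used; libraries of total RNA were not analysed here. The submitters' processing notes name MACS2 2.1.0, BWA 0.7.12 and the build GRCm39; their roles and settings are not given. Each list has 1 row per summit and overlapping gene. Fold enrichment is the authors' ratio, and p and q are deposited as −log10, per the file headers. The lowest deposited −log10 p was 2.30 to 2.33 per list. Coordinates are printed as deposited.

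A region was 1 chromosome, start and end, with the values of its best summit. Pull-down fragments and input coverage were recovered from fold and p, with a tolerance of 0.005 in −log10 p, and matched 100% of summits. Input coverage is the mean of the Poisson law that gives the deposited p, not a count of input reads. The method was tested on simulated data. For the matched alternative, p was recomputed at the input of the shallowest list with a threshold of 0.005. Which library served as input is not given. Depth was read from the lowest input coverage of each list and is known only relative to the other lists. The settings of the caller that may enter that value are not given. Parents were read from the letters before -ps or -rs. All -ps and -rs loci were named, except 1 item that enters the counts and is not reported here by name; full values were given for the 10 highest ranked members (mean percentile of −log10 p) in 4 or more lists and the 5 highest of each time pattern. Gm4149, Gm7809, Gm25395, Gm38394, Gm20234, Gm26759 and the other lower ranked recurrent loci were named after their values were seen. Members and lists were chosen with earlier results of these data known. Tests were exact permutation and sign-flip tests (Python 3.11.15, numpy 2.4.6, scipy 1.17.1).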

Additional observations from a re-analysis of the deposited data

How the results depend on the processing

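No paired analysis was possible because the list numbers tie to no sample. Leaving out 1 list in turn gave log2 ratios of member regions of -0.65 to -0.38 (24 h against 0 h), -0.80 to -0.58 (48 h against 0 h), -0.31 to -0.04 (48 h against 24 h) and -0.68 to -0.53 (later against 0 h). The share of members then differed by -0.84 to 2.20, -1.005 to 0.995, -2.21 to 0.83 and -0.66 to 1.34 points in the same contrasts, so single lists, 0 h lists 1 and 2, 24 h list 2 and 48 h list 2, turned its sign. For members against other regions it gave 0.01 to 0.04 (log2 fold), 17.3 to 20.2 points (q) and -1.45 to 1.65 points (found again, turned without 0 h list 1 or 24 h list 1); 5 lists cannot go below an exact p of 0.0625.

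Restricted to folds from 4 up, the log2 ratio of member regions was 0.032 at 48 h against 0 h and 0.54 at 48 h against 24 h. The last was 0.13 with -ps and -rs loci alone and 0.066 at matched input coverage. The difference in share at 24 h against 0 h was -0.74 points at equal list length. At 48 h against 0 h it was 2.31 at a q of 0.05 or less, 2.08 at a fold of 4 or more, 0.28 with -ps and -rs loci and 0.26 with regions in no other gene. At 48 h against 24 h it was 0.80 at a fold of 4 or more and 0.23 with -ps and -rs loci. For the later lists against 0 h it was -1.39 at equal list length and -0.22 at matched input coverage. Exact p of these ranged from 0.333 to 1.

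The log2 fold of members minus other regions was -0.033 at a q of 0.05 or less, -0.11 with -ps and -rs loci, -0.0053 at equal list length, 0.067 with regions in no other gene and 0.12 within 4 bins of input coverage (the last 2 at exact p = 0.0312). The difference at a q of 0.05 was 14.7 points at equal list length (exact p = 0.0625). The share found again differed by -1.60 points at a q of 0.05 or less, 6.05 at a fold of 4 or more (exact p = 0.0312), -1.64 with Gm loci and -4.94 within those bins.

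Counts of lost and gained regions were smaller at a fold of 4 or more, which leaves 88 merged members: 4 lost and 0 gained at 24 h, 4 and 2 at 48 h, 0 and 1 at 48 h against 24 h, and 4 in both 0 h lists alone. At a q of 0.05 or less 5 were lost and 1 gained at 48 h against 24 h, at matched input coverage 4 were lost, and by locus symbol 1 was gained. In all 4 later lists and no 0 h list there was 1 at equal list length and at matched input coverage (Gm9892, whose only 0 h region, in list 2, had a q of 1) and 1 by locus symbol (Gm38394, through regions at different places). The cause of these changes was not tested, beyond the fewer regions that a filter leaves. Losses and gains over all merged regions were not counted at these settings, so the member counts have no background here. The remaining settings, 104 of 141, kept direction and side of the threshold, or stayed within 1.5 times of the count. For contrasts between times the side was fixed in advance. Their smallest possible exact permutation p is 0.333 (2 lists against 2) or 0.0667 (2 against 4). For these contrasts only the direction could change.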
